A study of Mus musculus with 5 samples.

Results

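The constitutive proteasome subunit genes were taken as every gene row whose symbol is Psma, Psmb, Psmc or Psmd followed by a number, leaving out the interferon-inducible subunits Psmb8, Psmb9 and Psmb10. The rule found 36 members among 19061 gene rows. Of these, 16 are core genes (Psma and Psmb) and 20 are regulatory genes (Psmc and Psmd). In all, 35 members (15 core, 20 regulatory) passed the filter on low read counts and were among the 14414 genes tested. The member that did not pass was Psmb11, the thymus-specific beta subunit, with 1 to 6 reads per library. All 5 libraries were made from hearts of C57BL/6 mice labelled calcineurin transgenic (MHC-CnATg), at postnatal day 158. The transgene expresses calcineurin A from a myosin heavy chain promoter, which acts in heart muscle cells, and both groups carry it, so no non-transgenic heart enters the comparison. Vehicle was given to 2 mice and JIB-04, an inhibitor of Jumonji histone demethylases, to 3 mice at 50 mg/kg, with 3 doses a week beginning at 4 weeks of age. JIB-04 replicate 3 is titled CbAtg, the other libraries CnAtg, and the genotype label is the same for all 5.

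The proteasome is the barrel-shaped protease that degrades ubiquitin-tagged proteins in the cytosol and nucleus. Its core particle stacks outer rings of alpha subunits, which gate the entry, on inner rings of beta subunits, of which Psmb5, Psmb6 and Psmb7 carry the cutting sites. The regulatory particle that caps it has a base, where a ring of ATPases unfolds the substrate, and a lid, which removes the ubiquitin chain. Subunits are needed in fixed proportions, and the transcription factor Nfe2l1 is known to raise their genes together when proteasome activity is short. In heart muscle the proteasome takes part in the turnover of sarcomere and signalling proteins.

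The libraries held 32152168 to 37002846 reads on genes. Values are the deposited values headed CPM, whose sums per library run from 954981 to 1046902, so that they differ from plain CPM (reads scaled to the library's total) by a factor for each library. Ppp3ca, the calcineurin gene of the transgene, stood at 6082 and 8022 CPM in the vehicle libraries and at 7275, 4341 and 5421 CPM with JIB-04, and the groups overlapped. Cardiomyocyte markers were abundant in every library, as the tissue label says. No marker found in the files was at 0 in any library; 1 listed red blood cell marker (Ahsp) was not found and was not analysed here. The summed level of 15 cardiomyocyte markers ran from 136000 to 154000 CPM with vehicle and from 117000 to 149000 with JIB-04, and 14 of the 15 had a negative difference. The sum of 14 macrophage markers ran from 267 to 371 CPM with vehicle and from 373 to 584 with JIB-04, with 13 of 14 positive. Fibroblast markers summed to 2480 to 2820 against 2750 to 3870 CPM, endothelial markers to 831 to 855 against 736 to 991, red blood cell markers to 2510 to 3840 against 930 to 1840, and lymphocyte markers to 3.65 to 3.9 against 5.04 to 7.95. The lymphocyte markers were near the floor, with at most 41 reads (Cd79a) in any library. Hba-a1 and Hba-a2 have the same value in every library and were summed once. The part of these shifts in the proteasome values was not tested. In bulk tissue, fewer cells of a type and less RNA per cell cannot be told apart.

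No proteasome member passed the test between JIB-04 and vehicle hearts: by limma, 0 of 35 passed an adjusted p of 0.05 and 0% of all genes tested did. At an unadjusted p under 0.05 the count was again 0 of 35 members, against 928 genes or 6.44% of those tested. The smallest unadjusted p among the members was 0.218 (Psmc1). The differences were small: from -0.11 (Psmd5) to 0.11 (Psma8) on the log2(CPM + 1) scale, with a median of -0.03 over the members and -0.01 over all genes tested. In no member did the JIB-04 libraries lie entirely above or entirely below the vehicle libraries, while 10.7% of all genes were entirely above and 12% entirely below.

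The intervals say how large a difference these 5 hearts could hide. For 34 of the 35 members (97.1%) the 95% interval of the difference lay inside 1.25-fold in either direction (0.32 on the log2 scale). Of all genes tested 44.4% had intervals inside these limits, a comparison not matched for read depth. This bound was chosen after the values were seen. The exception was Psma8, the testis form of an alpha subunit, with 16 to 31 reads per library. Without it, the lowest interval limit over the members was -0.31 (Psmd5) and the highest 0.21. The narrow bound rests on both vehicle libraries: without vehicle replicate 1 it held for 23 members, and without vehicle replicate 2 for 28.

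**Figure D1:**
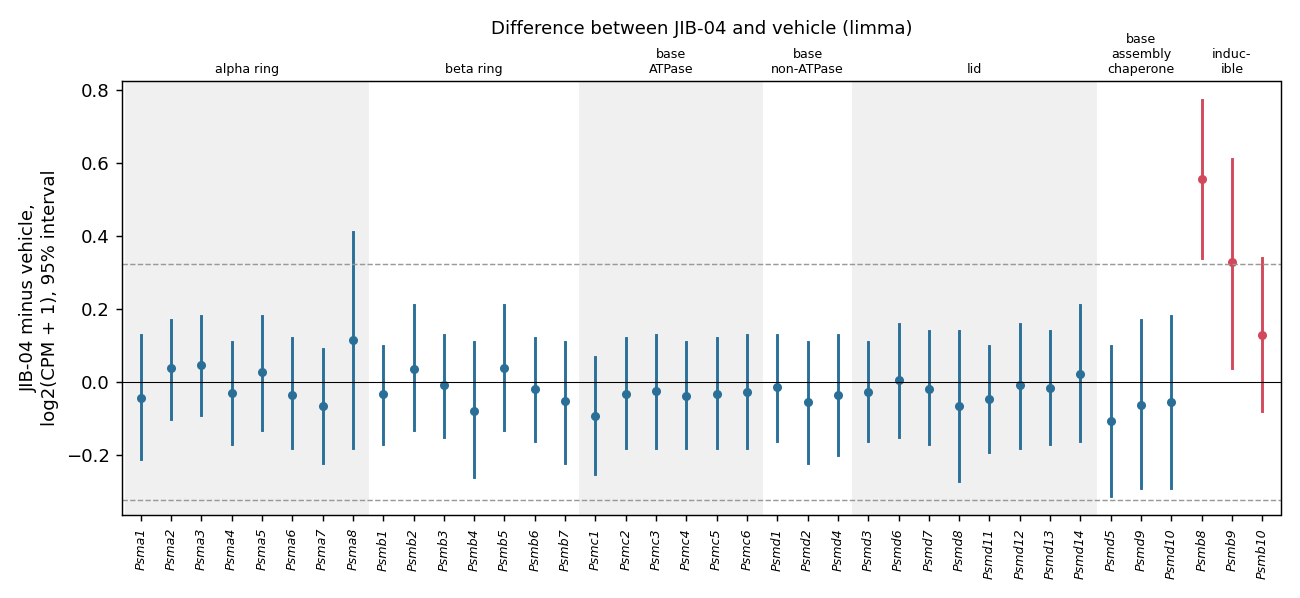
Difference between JIB-04 and vehicle hearts for the 35 tested members, grouped by place in the proteasome, and for the 3 inducible subunits, as log2(CPM + 1) with the 95% interval from limma (2 vehicle, 3 JIB-04 libraries). Dashed lines mark 1.25-fold; the interval of every member but Psma8 lies between them, and the whole interval of Psmb8 lies above.

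The sign of these small differences depended on the scaling and on the vehicle libraries. On the deposited scale 27 of 35 members (77.1%) had a negative difference, against 53.1% of all genes. Scaled to the plain total of reads, 9 of the 35 were negative and 26 positive, and the median moved from -0.03 to 0.02. The median of all genes moved by 0.05 between these scales, and the members' median lay 0.02 below that of all genes on both. Leaving out vehicle replicate 2 gave 13 negative and 22 positive, and leaving out vehicle replicate 1 gave 30 and 5. Vehicle replicate 2 was the highest library for 21 of 35 members on the deposited scale and for 2 of 35 on the plain scale. On the plain scale 4 members had all JIB-04 libraries above both vehicle libraries (Psma2, Psma3, Psmd1 and Psmd12; 11.4%), where 15.4% of all genes did, and 0 had them below, where 6.74% did.

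**Figure D2:**
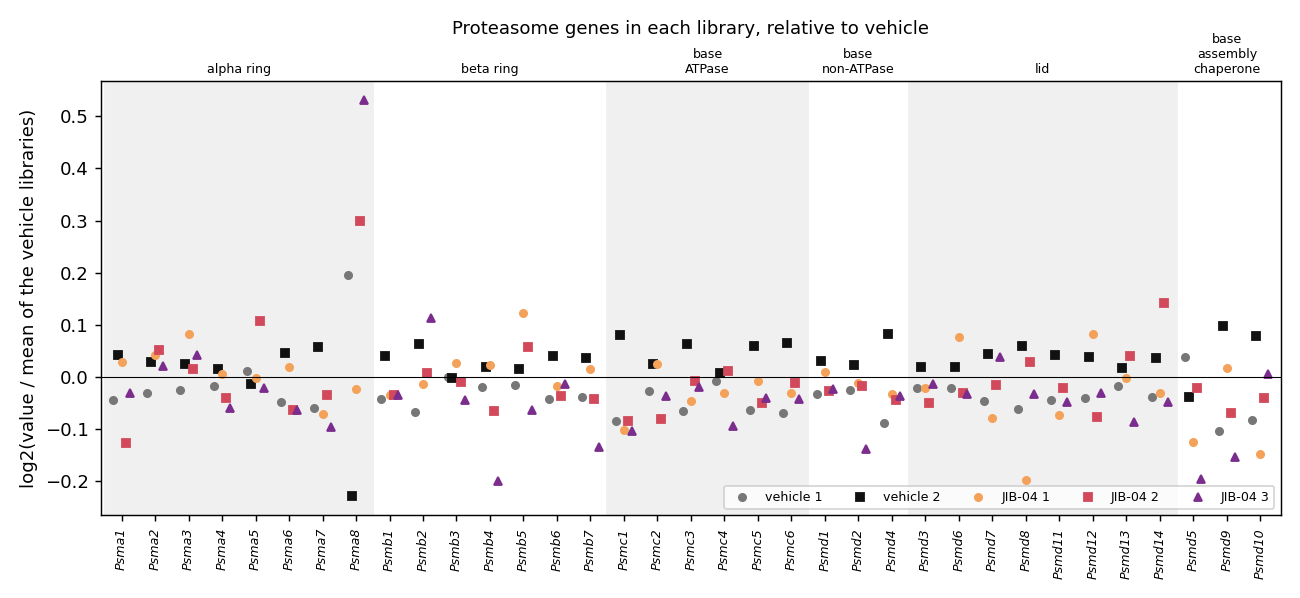
Each tested member in each of the 5 libraries, as log2 of its deposited value over the mean of the vehicle libraries. Points of both groups overlap in every member; vehicle replicate 2 is the highest library for 21 of the 35.

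Promoter sequence was examined as a feature that neither the rule nor the expression values used. RefSeq promoter windows (GRCm38.p6, from 250 bases before to 50 after the start) were matched for 29 of the 36 members and gave 31 windows, 13 core and 18 regulatory. The word CCGGAAG, bound by ETS-family transcription factors, was searched on both strands and found in 10 of 18 regulatory windows (Psmc1, Psmc2 in both of its windows, Psmc6, Psmd2, Psmd4, Psmd6, Psmd11, Psmd12 and Psmd13) but in 1 of 13 core windows (Psma6). Of all 32851 windows 8.86% hold it, and of the windows of tested genes 15.7%. Among the words searched, here and below, its split between core and regulatory windows was the most uneven. That split was not tested. The core of the antioxidant response element, TGACNNNGC, the site at which Nfe2l1 and Nfe2l2 are known to act, was in 5 of the 31 windows, 2 core (Psmb5, Psmb6) and 3 regulatory (Psmc6, Psmd9, Psmd12), or 16.1%, against 12.4% of all windows and 14.4% of those of tested genes. The stretches below, 5′ to 3′ on the gene's strand and upstream of the start, carry these words, with the matched word in capitals on whichever strand it was found; Psmc6 and Psmd12 hold both words, and the ETS word of Psmd12 is not printed.
Psmd4 (chr3:95042703-95042769, minus strand): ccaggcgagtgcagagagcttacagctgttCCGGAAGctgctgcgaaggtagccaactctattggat
Psmd11 (chr11:80428574-80428614, plus strand): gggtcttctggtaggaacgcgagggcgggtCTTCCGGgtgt
Psmc6 (chr14:45329694-45329760, plus strand): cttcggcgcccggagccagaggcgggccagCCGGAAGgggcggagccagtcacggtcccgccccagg
Psmc6 (chr14:45329574-45329635, plus strand): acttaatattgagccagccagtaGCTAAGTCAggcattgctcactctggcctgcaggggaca
Psmd9 (chr5:123228129-123228189, plus strand): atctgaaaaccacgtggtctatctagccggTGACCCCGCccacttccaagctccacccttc
Psmd12 (chr11:107479278-107479319, plus strand): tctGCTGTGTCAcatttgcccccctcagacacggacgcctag
In Psmd4 the ETS word starts 125 bases before the gene start, in Psmc6 100 and in Psmd11 11; the antioxidant response word of Psmd9 starts 31 bases before it. A match describes letters in a window and is no measurement of binding.

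Other promoter words were found in both kinds of gene, some of them unevenly. The nuclear respiratory factor word was in 6 of 31 windows (19.4%), 3 core and 3 regulatory, against 9.01% of the windows of tested genes; it is printed here for the lid deubiquitinase Psmd14 and the ATPase Psmc4, with the word in capitals.
Psmd14 (chr2:61711584-61711653, plus strand): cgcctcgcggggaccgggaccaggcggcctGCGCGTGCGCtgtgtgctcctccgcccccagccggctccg
Psmc4 (chr7:28050222-28050291, minus strand): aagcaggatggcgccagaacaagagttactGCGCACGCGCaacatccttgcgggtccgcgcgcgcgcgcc
The CCAAT word was in 12 windows (38.7%, against 37.1% of those of tested genes), 7 of 13 core and 5 of 18 regulatory. The GC box GGGCGG was in 18 (58.1%, against 60.5%), 5 of 13 core and 13 of 18 regulatory. It overlaps other words in places, as at Psmd9. TATAAA was in 3 (9.68%; 7.58%): Psmb4, Psmd1 and Psmd6.

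Among the beta subunits, the 3 that cut protein did not separate the groups. Psmb5 (chr14:54614120-54617995, mm10), the chymotrypsin-like subunit, stood at 65.73 and 67.14 CPM with vehicle and at 72.38, 69.16 and 63.56 with JIB-04. Its highest and its lowest library were both from JIB-04 hearts, and the difference was 0.04 (SE 0.07, limma adjusted p = 0.926). Psmb6 (chr11:70525357-70527858), the caspase-like subunit, stood at 100.4 and 106.2 against 102.1, 100.8 and 102.4 CPM. The JIB-04 values lay between the vehicle values, with a difference of -0.02 (SE 0.06, limma adjusted p = 0.95). Psmb7 (chr2:38588046-38643906), the trypsin-like subunit, stood at 123.9 and 130.6 against 128.7, 123.6 and 115.9 CPM, a difference of -0.05 (SE 0.07, limma adjusted p = 0.895). Psmb7 shares exon bases with Nek6 on the opposite strand.

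The non-catalytic beta subunits were as close. Psmb4 had the lowest difference of the beta ring, at 83.77 and 86.03 CPM with vehicle and 86.27, 81.19 and 73.99 with JIB-04. JIB-04 replicate 1 lay above the vehicle range and replicates 2 and 3 below it, and the difference was -0.08 (SE 0.08, limma adjusted p = 0.872). Psmb1, Psmb2 and Psmb3 differed by -0.03, 0.04 and -0.01. Psmb1 was nearly constant in the JIB-04 hearts, at 118.9, 119.0 and 119.0 CPM, between vehicle values of 118.3 and 125.3. In all, 5 of the 7 tested beta members were negative and 2 positive, with a median of -0.02.

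The alpha subunits were evenly divided, 4 negative and 4 positive, with a median of 0 on the log2 scale. Psma7 had the lowest difference, with 84.90 and 92.02 CPM in vehicle and 84.23, 86.34 and 82.79 in JIB-04 hearts. Vehicle replicate 2 was the highest library and 1 of the 3 JIB-04 values lay above vehicle replicate 1, for a difference of -0.07 (SE 0.06, limma adjusted p = 0.872). Psma3 had the highest difference among the ubiquitous alpha subunits, with 111.7 and 115.7 against 120.4, 114.9 and 117.1 CPM. Here 2 of the 3 JIB-04 values lay above both vehicle values, and the difference was 0.05 (SE 0.06, limma adjusted p = 0.888). Psma8 is the meiotic alternative to Psma7 and was read at 0.699 and 0.521 CPM against 0.600, 0.750 and 0.881. Its fold moved with the pseudocount and the model, from 0.11 on the log2(CPM + 1) scale (limma adjusted p = 0.879) to 0.29 by edgeR's quasi-likelihood test, and neither passed. Psma1, Psma2, Psma4, Psma5 and Psma6 differed by -0.04, 0.04, -0.03, 0.03 and -0.03.

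All 6 ATPases of the base had a negative difference on the deposited scale, from -0.09 to -0.02 with a median of -0.03. Psmc1 (chr12:100112331-100123364) stood at 120.0 and 134.5 CPM with vehicle and at 118.6, 120.1 and 118.5 with JIB-04. The JIB-04 hearts lay close to each other and to vehicle replicate 1, and vehicle replicate 2 stood above all of them. The difference was -0.09 (SE 0.07, limma adjusted p = 0.840), and it was -0.17 without vehicle replicate 1 and -0.01 without vehicle replicate 2. Psmc3 had the highest ATPase difference, -0.02 (SE 0.07, limma adjusted p = 0.951), from 186.6 and 204.0 CPM against 189.1, 194.2 and 192.8. Its JIB-04 values lay inside the vehicle range. Psmc2, Psmc4, Psmc5 and Psmc6 differed by -0.03, -0.04, -0.03 and -0.03.

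The large base subunits and the ubiquitin receptor were also on the negative side, with a median of -0.03 over 3 genes. Psmd2 (chr16:20651652-20663414), a scaffold that docks ubiquitin shuttle proteins, had the most reads of any member, up to 10939. It stood at 291.4 and 301.4 CPM with vehicle and at 293.9, 293.0 and 269.5 with JIB-04. Only JIB-04 replicate 3 lay below the vehicle values, and the difference was -0.05 (SE 0.07, limma adjusted p = 0.891). Psmd1, the other large scaffold, stood at 219.3 and 229.1 against 225.6, 220.1 and 220.8 CPM, with all JIB-04 values inside the vehicle range and a difference of -0.01 (SE 0.06, limma adjusted p = 0.973). Psmd4, the receptor whose ETS word is printed above, differed by -0.03.

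Of the 8 lid genes 6 were negative and 2 positive, with a median of -0.02. Psmd14, the metalloprotease that cuts the ubiquitin chain from the substrate, stood at 70.20 and 73.88 CPM with vehicle and at 70.52, 79.48 and 69.72 with JIB-04. JIB-04 replicate 2 was the highest library and replicate 3 the lowest, and the difference was 0.02 (SE 0.08, limma adjusted p = 0.966). Psmd8 had the lowest lid difference, -0.07 (SE 0.08, limma adjusted p = 0.891), from 129.5 and 140.8 against 117.8, 137.8 and 132.1 CPM. Its JIB-04 replicate 1 lay below every other library. Psmd11, a scaffold subunit of the lid, stood at 110.3 and 117.0 against 108.1, 112.0 and 110.0 CPM, a difference of -0.05 (SE 0.06, limma adjusted p = 0.893) with overlapping groups. Psmd3, Psmd6, Psmd7, Psmd12 and Psmd13 differed by -0.03, 0.00, -0.02, -0.01 and -0.02.

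The symbol rule also takes in Psmd5, Psmd9 and Psmd10, chaperones that help to assemble the base and leave before the proteasome is complete. All 3 were negative, with a median of -0.06. Psmd5 stood at 20.67 and 19.60 CPM with vehicle and at 18.48, 19.85 and 17.59 with JIB-04. Of its JIB-04 values 2 lay below both vehicle values and 1 between them, and the difference was -0.11 (SE 0.09, limma adjusted p = 0.851). Psmd10, known as gankyrin, stood at 10.48 and 11.72 against 10.02, 10.80 and 11.14 CPM, and Psmd9 at 18.52 and 21.29 against 20.16, 18.97 and 17.90 CPM. Their differences were -0.05 (SE 0.10, limma adjusted p = 0.925) and -0.06 (SE 0.10, limma adjusted p = 0.910), and the groups overlapped in both.

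The gap between core and regulatory genes differed little between the groups, which overlapped. The median difference was -0.02 over the 15 core genes, 9 negative and 6 positive, and -0.03 over the 20 regulatory genes, 18 negative and 2 positive. On the plain scale the counts were 3 and 12 for core and 6 and 14 for regulatory. The mean log2 level of the regulatory genes minus that of the core genes, set to the vehicle mean, was -0.020 and 0.020 in the vehicle libraries and -0.049, -0.014 and -0.031 in the JIB-04 libraries. JIB-04 replicates 1 and 3 lay below the vehicle range and replicate 2 inside it. The SD of this score within the groups was 0.022, and a score over members was given no p-value. Set to the vehicle mean in the same way, the core mean was -0.023 and 0.023 with vehicle and 0.015, -0.005 and -0.023 with JIB-04. The regulatory mean was -0.043 and 0.043 against -0.034, -0.020 and -0.054, so that only JIB-04 replicate 3 left the vehicle range.

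**Figure D3:**
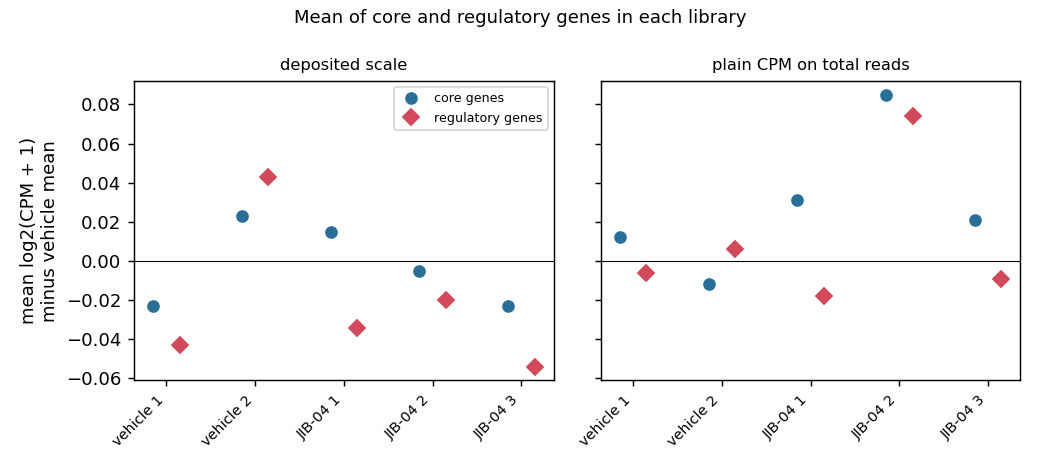
Mean log2(CPM + 1) of the 15 core and the 20 regulatory genes in each library, minus the vehicle mean, on the deposited scale (left) and on plain CPM (right). On the left the regulatory mean of vehicle replicate 2 is the highest point, at 0.043; on the right the highest are those of JIB-04 replicate 2, at 0.085 (core) and 0.074 (regulatory).

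The members varied little from heart to heart. Their median coefficient of variation over the 5 libraries, treatment ignored, was 3.69%, against 9.05% for all genes tested, of which 10.3% were at or under the members' median. Counting error alone gives a median of 1.67% for the members. Genes with far fewer reads are among all genes tested, and the comparison was not matched for depth. Apart from Psma8 and Psmb11, the lowest count of any member in any library was 334. The coefficient was under 5% for 27 of 35. Psmd3 (1.74%), Psmb3 (1.80%) and Psmd1 (1.88%) were the steadiest, and counting error gives 2.24% for Psmb3. Apart from Psma8 (20.1%, with 20.3% from counting), Psmd9 (7.01%), Psmd8 (6.78%), Psmd5 (6.29%) and Psmb4 (6.14%) varied most. On the deposited scale part of the variation was shared. The median SD over libraries was 0.0517 on the log2 scale and 0.0428 once the mean of the members in each library was taken off. The shared part includes the scaling factor of each library, and its source was not tested.

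**Figure D4:**
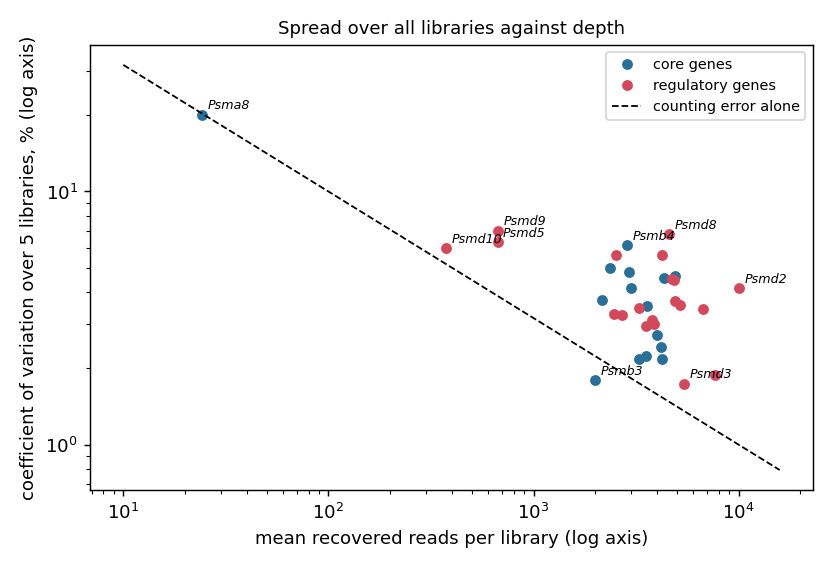
Coefficient of variation over all 5 libraries against the mean number of reads per library for each tested member (log axes), with the line that counting error alone would give. Psma8 lies on the line at 20.1% and Psmb3 just under it at 1.80%, while Psmd8 (6.78%) and Psmb4 (6.14%) lie well above it.

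After that shared part was removed, single genes in single hearts stood out by amount rather than by group. The largest deviations were -0.16 for Psmd8 in JIB-04 replicate 1, 0.13 for Psmd14 in JIB-04 replicate 2, -0.12 for Psmb4 and 0.12 for Psmb2 in JIB-04 replicate 3, and 0.12 for Psmd5 in vehicle replicate 1, leaving out Psma8. Together the members took 0.369% and 0.370% of all reads in the vehicle hearts and 0.371%, 0.389% and 0.370% in the JIB-04 hearts. JIB-04 replicate 2 was thus the highest library by share of reads, and the other libraries of both groups lay between 0.369% and 0.371%.

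Levels can be compared between genes only per length, so CPM was divided by the length of the GENCODE M21 principal transcript (GRCm38), matched for all 36 members. On this scale the 31 ubiquitous subunits of the particle itself lay within 4.08-fold of each other in the vehicle hearts, with a median of 73.0 CPM per kilobase. The highest were Psmb6 at 129 ± 5.14 (SD, n = 2), Psma1 at 120 ± 5.12 and Psmc3 at 119 ± 7.52, whose order is within their spread. The lowest was Psma2 at 31.6 ± 0.906, and its principal transcript is among the longest of the core genes. The medians were 96.8 for the 7 ubiquitous alpha and 74.9 for the 7 ubiquitous beta subunits, 72.1 for the ATPases, 100 for the 3 other base subunits and 61.7 for the lid. The JIB-04 medians were 92.4, 76.0, 70.3, 96.4 and 61.6 in the same order. Per length of all annotated exons the vehicle medians were 46.4, 43.5, 56.8, 50.4 and 28.5, and Psma6 was the highest gene at 85.3. The order of the subcomplexes and of the top genes thus depended on the length used.

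The assembly chaperones stood well under the subunits they serve, at 7.76 (Psmd10), 7.66 (Psmd9) and 4.58 (Psmd5) CPM per kilobase in vehicle hearts. Because of them, the regulatory genes had a wider range (26-fold) than the 14 ubiquitous core genes (4.08-fold), with Psma8 and Psmb11 left out. Without the chaperones the regulatory range was 3.04-fold, and the medians were 72.0 for regulatory and 85.8 for the same core genes. Per length of all annotated exons, the highest chaperone was at 7.56 (Psmd10) and the lowest subunit at 17.8 (Psmd11), and the medians of subunits were 44.2 for regulatory and 45 for core. The gap between chaperones and subunits thus held with either length, while the gap between core and regulatory medians did not. The tissue-restricted members were near the floor, with Psma8 at 0.36 and Psmb11 at 0.021.

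**Figure D5:**
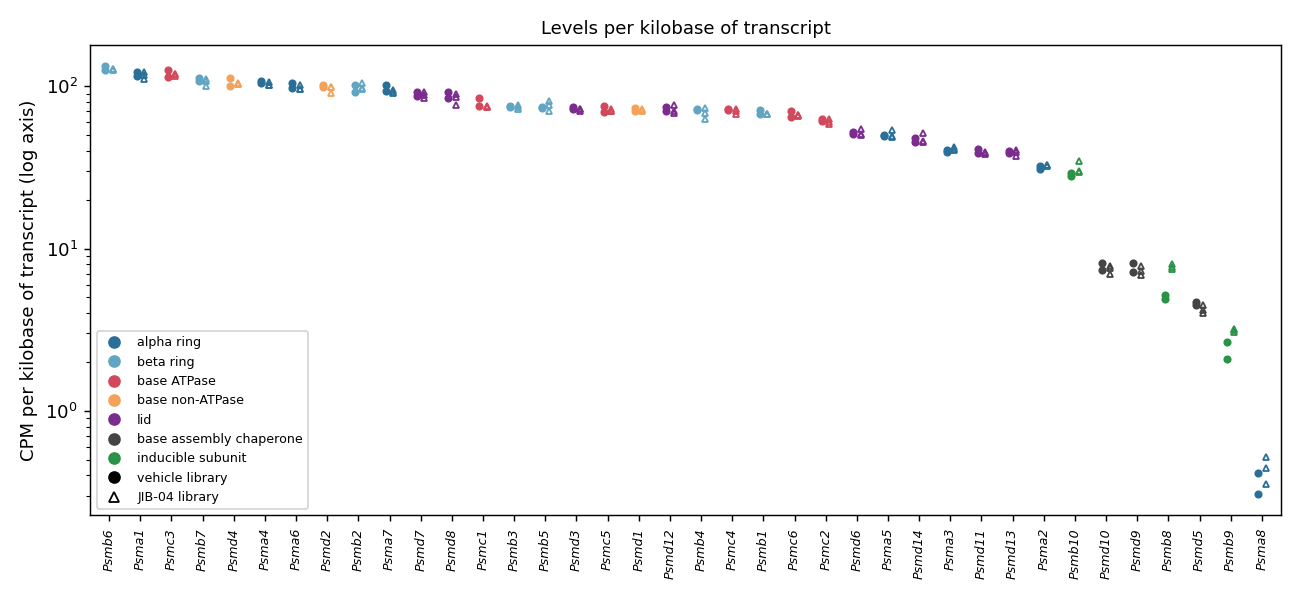
Deposited CPM per kilobase of principal transcript (log axis) for the members other than Psmb11 and for the 3 inducible subunits, ordered by the vehicle mean; filled circles are vehicle and open triangles JIB-04 libraries. Subunits from Psmb6 (129) to Psma2 (31.6) form 1 band, and the assembly chaperones, Psmb8 and Psmb9 lie below 10.

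The inducible subunits take the places of the catalytic ones in new proteasomes of immune cells and of cells exposed to interferon. None of the 3 passed limma over all genes, and whether their differences exceed those of the members was not tested. Psmb8, which replaces Psmb5, stood at 7.982 and 8.466 CPM with vehicle and at 12.15, 12.46 and 13.04 with JIB-04. All JIB-04 values were above both vehicle values; the difference was 0.55 (SE 0.09), which did not pass limma (adjusted p = 0.399) and did in DESeq2 (0.62, adjusted p = 0.00527). Psmb9 stood at 3.574 and 2.833 against 4.169, 4.286 and 4.319 CPM (0.33, limma adjusted p = 0.748) and Psmb10 at 36.84 and 38.39 against 39.65, 45.54 and 38.70 CPM (0.13, limma adjusted p = 0.831). The macrophage marker sum given above separated the groups narrowly on the deposited scale, at 371 against 373 CPM for the nearest libraries. On plain CPM the sum overlapped (255 to 373 against 370 to 591). Gene by gene on the deposited scale, 13 of the 14 markers were positive and 1 negative, with a median difference of 0.66. For 8 of them every JIB-04 library lay above both vehicle libraries, where 10.7% of all genes did. By limma 11 had an unadjusted p under 0.05 and 0 passed the adjusted threshold. The part of the macrophage markers in the values of the inducible subunits was not tested.

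Within a library, the scale of the library cancels in the ratio of an inducible subunit to the one it replaces. The log2 ratio of Psmb8 to Psmb5, set to the vehicle mean, was -0.03 and 0.03 with vehicle and 0.44, 0.54 and 0.73 with JIB-04. The difference was 0.57 with no overlap, at an exact two-sided permutation p of 0.1, the smallest that 2 against 3 libraries allow (adjusted over 3 pairs, 0.15). For Psmb9 to Psmb6 it was 0.44 (exact permutation p = 0.1, adjusted 0.15) and for Psmb10 to Psmb7 0.18 (exact permutation p = 0.2, adjusted 0.2). The values for Psmb9 to Psmb6 were 0.21 and -0.21 against 0.41, 0.46 and 0.45, and those for Psmb10 to Psmb7 were 0.01 and -0.01 against 0.06, 0.32 and 0.17. Per length in vehicle hearts, Psmb8 stood at 5.05 and Psmb9 at 2.37 CPM per kilobase.

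Caps other than the regulatory particle were close to vehicle. Psme1 and Psme2, the interferon-responsive activator, differed by 0.02 and 0.07, Psme3, the nuclear activator, by -0.01, and Psmf1, the inhibitor, by -0.05. Psme2 stood at 25.45 and 24.91 CPM with vehicle and at 25.68, 26.14 and 27.62 with JIB-04, without overlap on this scale. On plain CPM it overlapped, with JIB-04 replicate 1 at 25.45 under vehicle replicate 1 at 25.59. Psme4 differed by -0.11, from 368.1 and 402.1 CPM to 401.9, 364.3 and 306.3, and JIB-04 replicates 2 and 3 lay below the vehicle range. None of the 8 genes of this list, inducible subunits included, passed by limma, where 2 (Psmb8 and Psmb9) had an unadjusted p under 0.05.

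Of 15 tested assembly and proteasome-associated genes, 11 were negative and 4 positive, with a median of -0.05, and 0 passed by limma, adjusted or at an unadjusted p under 0.05. Pomp, the chaperone that matures the core, stood at 63.58 and 64.93 CPM with vehicle and at 64.91, 62.33 and 58.98 with JIB-04, a difference of -0.05. The deubiquitinase Usp14 differed by -0.06 and the ubiquitin receptor Adrm1 by -0.07. The groups overlapped in all 3 genes.

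The list drawn up around Nfe2l1, Nfe2l2 and genes connected with them gave 0 of 11 past limma's adjusted or unadjusted threshold, with 7 negative, 4 positive and a median of -0.01. Nfe2l1 itself stood at 784.1 and 824.3 CPM with vehicle and at 758.7, 778.9 and 768.5 with JIB-04. Every JIB-04 value was below both vehicle values on this scale, with a difference of -0.06 (SE 0.08, limma adjusted p = 0.887). On plain CPM the groups overlapped, at 788.5 and 787.4 against 752.1, 815.6 and 777.6. Nfe2l2, its relative in the oxidant response, stood at 118.4 and 132.9 against 106.9, 111.4 and 127.5 CPM, a difference of -0.12 (limma adjusted p = 0.840) with overlap. Keap1, the adaptor that marks Nfe2l2 for degradation, stood at 77.88 and 78.99 against 74.48, 67.96 and 72.28 CPM, a difference of -0.13 (limma adjusted p = 0.816), without overlap on either scale.

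Upstream of the proteasome, 0 of 12 genes for the p97 unfoldase and ubiquitin shuttles and 0 of 6 genes for ubiquitin and its E1 enzymes passed limma's adjusted or unadjusted threshold. Their medians were -0.02 (8 negative, 4 positive) and -0.03 (4 negative, 2 positive). Vcp, the p97 unfoldase that hands substrates to the proteasome, differed by -0.08. Ubb, a polyubiquitin gene, stood at 321.6 and 325.6 CPM with vehicle and at 304.2, 299.1 and 277.7 with JIB-04, a difference of -0.14 (limma adjusted p = 0.816). The groups did not overlap on this scale but did on plain CPM, where JIB-04 replicate 2 (313.2) lay above vehicle replicate 2 (311.0). Rps27a, which encodes ubiquitin fused to a ribosomal protein, had the opposite sign, at 158.4 and 157.6 against 172.9, 172.4 and 164.7 CPM, a difference of 0.10, with no overlap on either scale.

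By other tests the members gave the same count. The edgeR quasi-likelihood test called 0 genes (0%) and 0 members, limma-voom 0 and 0, and DESeq2 85 genes (0.561% of those with an adjusted p) and 0 members. With 2 vehicle hearts and single bulk libraries, what was measured is messenger RNA; protein and proteasome activity were not. Counts of 5 members may include reads of a coding gene that shares exon bases (Psmc3, Psmb7, Psma4, Psmd1 and Psmd13), and GENCODE lists 4 pseudogenes named after Psmb5, Psmb6 and Psmb7, so those values are less certain.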

How the data were processed

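Poly(A) RNA-seq libraries (stranded kit, per the labels' protocols) of 5 mouse hearts were used. The submitters' processing notes name FastQC 0.11.2, TopHat2 2.0.12, Picard 1.127, featureCounts, Subread, edgeR and mm10, with no role or order; the strand setting and annotation are not given in the sources used here. The deposited signal values are headed CPM, per the file headers, but their sums run from 954981 to 1046902. Whole reads were recovered from their steps, with 100% of values within 0.01 of a whole number. 1 blank row was dropped.

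Values were tested as log2(CPM + 1) with limma 3.58.1 (trend) in R 4.3.3, with 3 residual degrees of freedom. Genes were kept by edgeR 4.0.16 filterByExpr with the groups given. It asks for the equivalent of 10 reads at the median depth in at least 2 libraries, and for 15 reads in all. Adjustment was by Benjamini-Hochberg over 14414 genes. A fold on this scale understates the change of low genes. DESeq2 1.42.0, edgeR and limma-voom on recovered reads were alternatives, as were other pseudocounts, filters and scalings. The procedure was tested on simulated data with less spread between libraries than estimated here and with changes larger than any member showed. It was not checked for small differences at the spread of these libraries. Nothing states separate litters or batches, so p-values measure the spread between these libraries.

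The members, lists and tests were chosen with earlier results of these data known. Full statistics were given for Psmb5, Psmb6, Psmb7, the 10 members with the smallest p and the highest and lowest of each subcomplex. From other lists the rule allows fixed proteasome-pathway genes and up to 3 genes per list with the smallest p; not all of these are described, and Vcp, outside the rule, was named after its values were seen. Gene spans are the deposited mm10 ones, written 1-based.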

Additional observations from a re-analysis of the deposited data

How the results depend on the processing

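No member was called under any alternative run (pseudocounts of 0.5 and 0.1, no filter, a mean of at least 1 CPM, 3 other scalings, 3 other models, each library left out, the replicate block). Without single libraries, the median difference ran from -0.06 to 0.02 over all members, from -0.05 to 0.01 over core and from -0.07 to 0.02 over regulatory genes, and regulatory minus core from -0.03 to 0.01; the lowest medians came without vehicle replicate 1 and the highest without vehicle replicate 2. On plain CPM the medians were 0.02, 0.03 (core) and 0.02. Genes called by limma numbered 0, but 29 (27 higher, 2 lower) without JIB-04 replicate 1; DESeq2 called 85 (69 higher, 16 lower). Counts at an unadjusted p under 0.05 were 928 by limma, 946 by edgeR, 872 by limma-voom and 823 by DESeq2. The cause of these shifts was not tested. Intervals stayed inside 1.25-fold for 23 to 33 members when a library was left out; where 1 vehicle library was left, it is assumed to vary like the JIB-04 group. With replicate numbers 1 and 2 as a block, 0 genes were called, the median was -0.02 and 27 intervals were inside. Same-numbered libraries had correlations of -0.13 in their deviations from the group means. With 2 vehicle libraries these deviations mirror each other, so the check cannot decide whether the numbers mark pairs. Of the values of single named genes, 1305 stayed within the spread, 76 moved by more, and 7 newly passed, all for Psmb8 or cell type markers and none for a member.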

Other observations

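Other large complexes of constant make-up were as steady as the proteasome in these hearts. The 9 genes of the COP9 signalosome, a relative of the proteasome lid, had a median coefficient of variation of 3.88% over the 5 libraries, the 13 genes of the translation initiation factor eIF3 2.55% and the 8 genes of the CCT chaperonin 2.68%. Their median differences between JIB-04 and vehicle were -0.05, 0.00 and 0.02, with 7 of 9, 7 of 13 and 2 of 8 negative, and limma called 0 in each, with 0 at an unadjusted p under 0.05. Cops5, the catalytic subunit of the signalosome, stood at 71.49 and 80.00 CPM with vehicle and at 69.65, 72.30 and 64.33 with JIB-04, a difference of -0.14, and the groups overlapped.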
